A study of Mus musculus with 12 samples.

Results

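Dpyd encodes dihydropyrimidine dehydrogenase, and in mouse liver it was the gene with the largest number of different back-splice junctions in the table: 46 of 16445 junctions, or 0.280%. At a back-splice junction the end of an exon is joined backwards, to its own start or that of an exon upstream, which closes the RNA into a circle (circRNA). The 46 were all junctions that lie inside the GENCODE M21 gene on the plus strand of chromosome 3 (chr3:118562129-119432924, GRCm38) and have at least 1 end on an annotated exon boundary. Both ends were on boundaries for 33 of them and 1 end for 13. The gene was chosen by its measured number of junctions over all 12 livers, so that number and the levels behind it are given as a description. The rule does not use the comparison between treatments.

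Libraries were made from total liver RNA of 12 mice (strain C57BL/8 in the labels), and junctions were read from their sequences. The 6 PZH mice were injected with carbon tetrachloride (CCl4), a toxin that scars the liver, and also took PZH, the Chinese medicinal preparation Pien Tze Huang, at 25 mg/ml daily from week 2 to week 8. The 6 Control mice had the CCl4 injections without PZH. All 12 mice thus carried the CCl4 injury (a 10% preparation, 10 µl per 10 g of body weight, 2 injections a week), livers were collected in week 8, and livers without CCl4 were not analysed here. In each group 6 mice were sampled per the labels, 1 for each library.

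Dihydropyrimidine dehydrogenase carries out the first and rate-limiting step in the breakdown of uracil and thymine. It reduces the pyrimidine ring with electrons from NADPH, passed along flavin and iron-sulfur groups, and it also inactivates the drug fluorouracil. The liver is a main site of this pathway, in which Dpys and Upb1 encode the following enzymes. Circular RNA of a gene is measured only at the junction, so the inner exons of a circle and the linear messenger RNA are not seen here.

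The principal Dpyd transcript has 23 exons and 1025 codons. Its junctions can be told apart by short sequences that no annotated linear transcript holds. The 9 junctions below are those the results turn on whose 2 ends both lie on exon boundaries. The last 15 bases of the exon at the end of the circle are in lower case and the first 15 bases of the exon at its start are in capitals, so the change of case marks the back-splice. The bases come from the GENCODE M21 transcript.
Exons 9 to 12, chr3:118897094-118944335: cacaagcacatacagGCTTGCCAGAACCCA
Exons 9 to 11, chr3:118897094-118917283: tggaggatcccaaagGCTTGCCAGAACCCA
Exons 9 to 13, chr3:118897094-118999385: ttctctcttgataagGCTTGCCAGAACCCA
Exons 11 to 12, chr3:118917073-118944335: cacaagcacatacagATGGAGCTCGCTAAG
Exons 5 to 8, chr3:118781836-118811267: catttattggaatagAACTACTATGGTGCA
Exons 4 to 8, chr3:118759656-118811267: catttattggaatagATGCCTGAAGTGCGC
Exons 17 to 18, chr3:119194242-119195188: atggaggagtgtcagGATCCAGAGCTGGTG
Exons 15 to 18, chr3:119135722-119195188: atggaggagtgtcagATCCTGATCGCCAGC
Exons 14 to 18, chr3:119064879-119195188: atggaggagtgtcagGACATCGTGACAAAC
The first 3 share their capitals, the start of exon 9. The exon 12 end is shared by 2 of the 9, the exon 8 end by 2 and the exon 18 end by 3. None of these 30-base strings occurred in any of the 141767 transcripts of GENCODE M21.

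The circle of exons 9 to 12 was the most abundant Dpyd junction, with 22.8% of the gene's signal. Values are SRPBM, the authors' normalised measure of reads across a back-splice junction. It holds 674 bases of annotated exon, covers codons 284 to 508 and spans 47242 bases of genome. That of exons 9 to 11 (489 bases, codons 284 to 447) followed with 11.9%, and those of exons 5 to 8 (529 bases, codons 108 to 284) and of exons 9 to 13 (890 bases, codons 284 to 580) with 9.36% and 7.5%. All exons from 2 to 22 are coding over their whole length, so these circles lie within the coding sequence, if their inner exons are spliced as annotated. Exonic length was a multiple of 3 for 15 of the 33 junctions with both ends on boundaries, among them exons 9 to 11 and not exons 9 to 12.

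**Figure D1:**
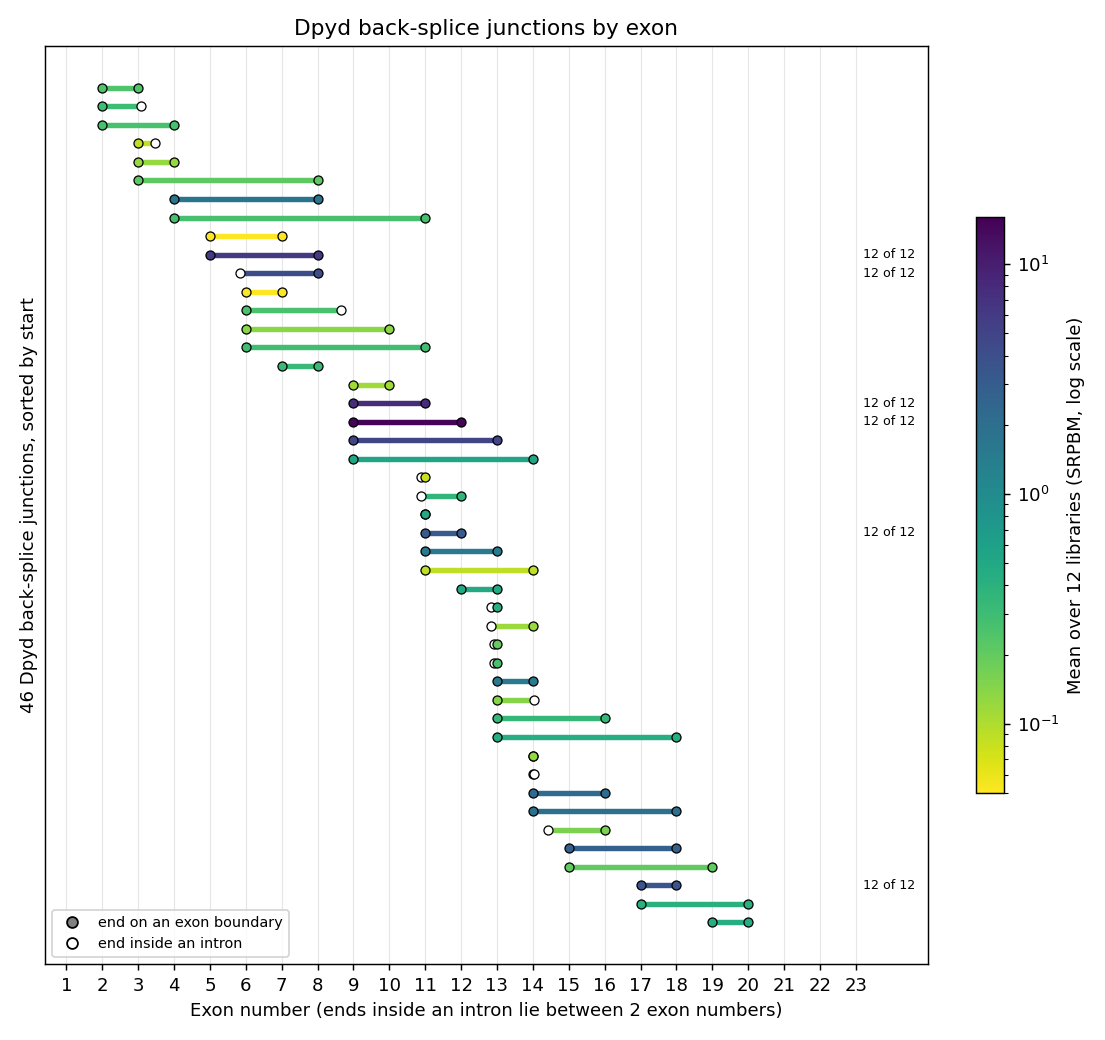
Each line is 1 of the 46 Dpyd junctions, drawn between its start and end on an axis of exon number, coloured by its mean over the 12 libraries in SRPBM on a log scale; filled circles are ends on exon boundaries and open circles ends inside an intron. The 6 junctions marked 12 of 12 were above 0 in every library, and no junction used exons 1, 21, 22 or 23.

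The start of exon 9 was the main acceptor of the gene. It took part in 5 junctions, which ended at exons 10, 11, 12, 13 and 14 and carried 43.2% of the Dpyd signal. Among starts, exons 5, 14 and 11 came next with 9.43%, 8.29% and 8.01%. The signal was spread more evenly over ends, of which exon 12 had 28.1%, exon 8 19.2%, exon 11 13.7%, exon 18 13.3% and exon 13 11.9%. In all, 14 exons served as starts and 13 as ends, and the 33 pairs seen were a small part of the 231 that the internal exons would allow. The most frequent size was 2 exons, with 10 junctions, and 10 junctions spanned 5 or more exons, up to 8. A further 2 were circles of a single exon, exon 11 and exon 14. In the genome the 46 junctions spanned 165 to 196019 bases, with a median of 57351, and 25 spanned at least 50000 bases.

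Most circles stayed within 3 stretches of the gene, which were delimited after the junctions had been seen. With an end inside an intron counted to the exon before it, exons 9 to 13 held 13 junctions and 53.0% of the signal, exons 2 to 8 held 13 junctions and 21.3%, and exons 14 to 20 held 10 junctions and 19.8%. The remaining 10 junctions, which ran between stretches, carried 5.93%. Over the 6 libraries of each group, exons 9 to 13 held a mean ± SD of 52.9% ± 10.99 of Dpyd signal in PZH livers and 54.5% ± 6.02 in Control livers, exons 2 to 8 held 20.7% ± 6.49 in PZH and 21.6% ± 5.37 in Control, and exons 14 to 20 held 20.99% ± 8.32 in PZH and 17.7% ± 5.78 in Control. Intron 8, which parts exons 2 to 8 from exons 9 to 13, is 85826 bases long and was spanned by circles with 1.06% of the signal. One other annotated gene, Gm43410, lies in that intron on the same strand, and no Dpyd junction was assigned to it. Introns 7 and 9 on either side are 7047 and 1965 bases long and were spanned by 20.6% and 44.3%. Intron 13 (65493 bases), which parts exons 9 to 13 from exons 14 to 20, was spanned by 4.86%. Introns 2 and 3, inside exons 2 to 8, were spanned by less, 1.24% and 0.917%. Other long introns were spanned by more: introns 12, 14 and 16 (54834, 70678 and 52256 bases) by 11.5%, 7.48% and 8.16%. At the other end, intron 18 (70766 bases) was spanned by 0.928%. Intron 20, the longest at 97202 bases, was spanned by none, and neither were the shorter introns 21 and 22 (14870 and 4198 bases).

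**Figure D2:**
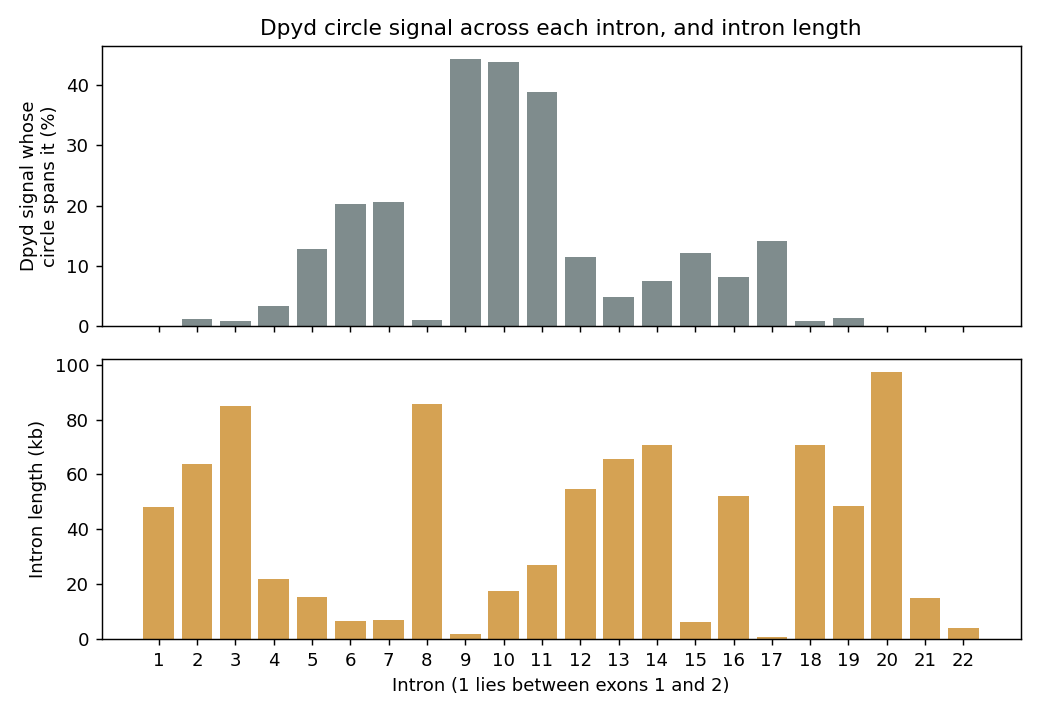
The upper bars give, for each intron, the percent of the Dpyd signal over 12 libraries whose junction spans it, and the lower bars the intron's length in kb. Intron 8 stands between introns spanned by 20.6% and 44.3% of the signal and was itself spanned by 1.06%.

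Long introns are a known feature around exons that form circles, and Dpyd is rich in them. Of its 22 introns 9 are longer than 50000 bases, and the median is 37499 bases, against 1932 for the median of the host genes. Averaged over junctions by their signal, the intron before the start was 64588 bases long and the intron after the end 61244 bases. The gene spans 870796 bases, where the median host gene spans 54268, and 23 exons stand beside a median of 14. Among the next hosts by number of junctions, Mllt10 (a chromatin cofactor gene, 38 junctions), Gphn (gephyrin, 36), Vwa8 (36), and Ehmt1 and Rere (35 each) span 129687 to 458394 bases, with median introns of 1239 to 10481 bases. No test was made of these differences, since each gene is a single case.

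Dpyd did not lead by amount. Its junctions together averaged 65.8 SRPBM over the 12 libraries, which placed it 88th of 4729 host genes, with 0.184% of all circRNA signal. Mllt10, Gphn, Vwa8, Ehmt1 and Rere averaged 86.8, 92.3, 56.9, 80.4 and 96.7 SRPBM. The leading junction made up 22.8% of the Dpyd sum, 21.5% in Mllt10 and in Ehmt1, and 80.9% in Asph, the host with the highest sum. In the 340 hosts with at least 10 junctions the median was 44.9%, and 12 of them had a lower share than Dpyd. Many Dpyd junctions were rare: 14 of 46 (30.4%) were above 0 in a single library, against 44.2% of all junctions in the table, 18 were above 0 in 2 to 5 libraries, 8 in 6 to 11 and 6 in all 12. These last 6 carried 60.6% of the signal, and the 32 that were above 0 in fewer than 6 libraries carried 12.3% and never exceeded 4.40 SRPBM.

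Each library listed only part of the 46 junctions. The number above 0 was 17, 14, 21, 18, 14 and 15 in the PZH libraries, against 18, 18, 21, 15, 21 and 10 in the Control libraries. Control 6 had the fewest, and 26 junctions were seen in both groups, 9 only in PZH and 11 only in Control libraries. A junction above 0 in a single library can be seen in only 1 group. This was so for 14 of the 46 (30.4%, against 44.2% of all junctions). Others seen in only 1 group were above 0 in 2 or more libraries, up to 4 Control libraries for chr3:118990106-118999385. The share of all junctions seen in only 1 group is not given here, so the counts by group are not read as a treatment result. The mean was 16.5 ± 2.74 junctions in PZH livers and 17.2 ± 4.17 in Control livers (SD, n = 6 each), a difference of -0.667 with an exact permutation p of 0.833 (2-sided). This was 1 of 6 such tests on Dpyd, and adjusted over the 6 it was 0.855. A junction listed at 0 may still have been present.

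The level of all Dpyd circles together did not differ between the treatments by more than the spread among mice. Summed over the 46 junctions it was 82.2, 61.3, 67.6, 63.6, 54.0 and 73.4 SRPBM in the PZH libraries, against 70.0, 64.1, 86.7, 56.0, 75.1 and 35.2 SRPBM in the Control libraries. The ranges overlapped, and the highest and the lowest value were both Control libraries. Mean and SD over 6 livers were 67.0 ± 9.87 SRPBM with PZH, against 64.5 ± 17.7 SRPBM for the 6 Control livers. In limma, fitted over 2204 host gene sums on log2(SRPBM + 0.636), the log2 fold change of PZH over Control was 0.09 (SE 0.18, 95% interval -0.28 to 0.47, adjusted p = 0.911). Of all host gene sums 0% passed an adjusted p of 0.05 and 8.12% an unadjusted one. Without Control 6 the log2 fold change of the Dpyd sum was -0.067.

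As a share of all circRNA in the library, Dpyd made up 0.261%, 0.155%, 0.177%, 0.184%, 0.166% and 0.179% in PZH livers, against 0.196%, 0.222%, 0.212%, 0.145%, 0.204% and 0.117% in Control livers. PZH 1 had the highest and Control 6 the lowest share. The means were 0.187% ± 0.0378 in PZH livers and 0.183% ± 0.0419 in Control livers (SD, n = 6 each), with an exact permutation p of 0.855 (2-sided, also 0.855 adjusted over the 6 tests). In whole liver, fewer cells of a type and less RNA per cell cannot be told apart in such values.

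**Figure D3:**
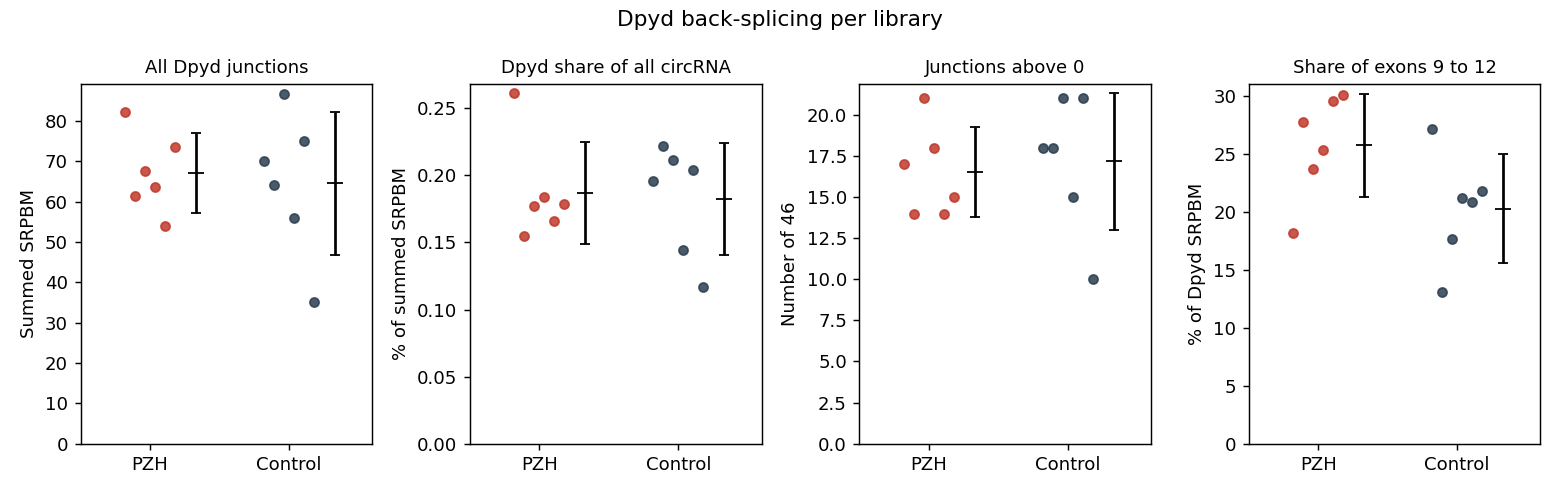
Dots are libraries, PZH in red and Control in dark blue, and bars give the mean and SD (n = 6 each); the panels show summed Dpyd SRPBM, the percent of all circRNA, the number of the 46 junctions above 0, and the percent of Dpyd signal in the circle of exons 9 to 12. The groups overlap in all 4 panels, and Control 6 is lowest in the first 3, at 35.2 SRPBM, 0.117% and 10 junctions.

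Single junctions were compared for the 14 of 46 that were above 0 in at least 6 libraries and so entered the fit over 3870 circRNAs. With the limma threshold set at an adjusted p of 0.05, 0 of the 14 passed, where 0.0517% of all circRNAs tested did. At an unadjusted p of 0.05, 0 of the 14 passed, against 7.55% of all. Under the alternatives run up to 1 Dpyd junction did, and the counts over all circRNAs for these are given further below. An exact rank-sum test called 0 of the 14 at an adjusted p of 0.05, against 0% of all, and 0 at an unadjusted one, against 6.87% of all. The log2 fold changes of PZH over Control were above 0 for 8 of the 14, against 54.3% of all tested, and their median was 0.20, against 0.06. They lay between -0.86 and 1.33 with SEs of 0.25 to 0.72, and each 95% interval included 0. In 0 of the 14 did the groups fail to overlap, where 0.672% of all tested did.

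**Figure D4:**
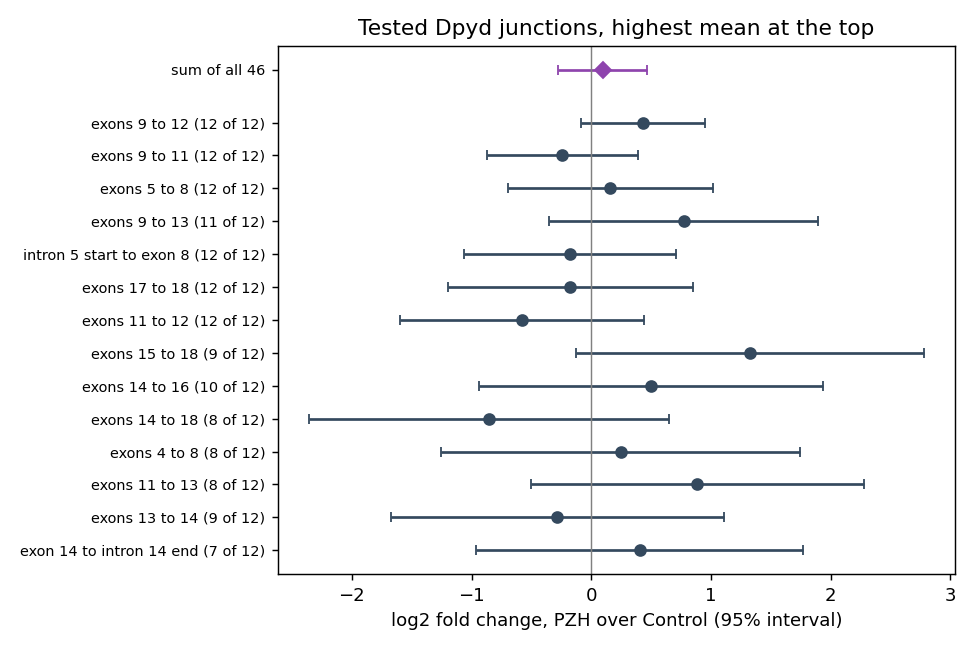
Points are log2 fold changes of PZH over Control on the log2(SRPBM + 0.636) scale from limma for the 14 tested Dpyd junctions, ordered by mean level with the highest at the top, and the diamond is the sum of all 46; bars are 95% intervals. Each interval includes 0, and the narrowest among the single junctions is that of exons 9 to 12.

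Among circles that start at exon 9, that of exons 9 to 12 had a median of 16.1 SRPBM in PZH (14.9 to 22.1), against a median of 13.6 SRPBM in Control (7.68 to 19.0). All 6 PZH libraries lay above 3 of the 6 Control libraries, and the ranges overlapped. Means were 17.0 ± 2.57 SRPBM for PZH and 12.96 ± 4.44 SRPBM for Control (SD, n = 6 each), and the log2 fold change was 0.43 (SE 0.25, limma adjusted p = 0.697). That of exons 9 to 11 had a median of 7.29 SRPBM in PZH (4.90 to 10.1), against 8.68 SRPBM in Control (5.88 to 11.5). Its groups overlapped over most of their range, with a log2 fold change of -0.24 (SE 0.30, limma adjusted p = 0.894). For exons 9 to 13 the PZH libraries stood at 4.56, 4.12, 5.61, 5.16, 6.73 and 8.27 SRPBM, against 2.21, 4.57, 4.49, 4.34, 9.16 and 0 SRPBM in the Control libraries. The highest and the lowest of these were Control libraries, and the log2 fold change was 0.77 (SE 0.54, limma adjusted p = 0.743), or 0.27 without Control 6.

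The choice of end by circles that start at exon 9 was described further after these values had been seen, so it carries no test. Of their signal, 56.8% ± 4.15 ended at exon 12 in PZH, against 48.4% ± 7.87 in Control (SD, n = 6 each), and 23.5% ± 3.43 ended at exon 11 in PZH, against 34.0% ± 12.1 in Control. The ratio of exons 9 to 12 over exons 9 to 11 was 1.99 to 3.28 in PZH, with a median of 2.22, against 0.729 to 2.60 in Control, with a median of 1.74. In Control 2 and Control 6 alone was the shorter circle the more abundant one, at ratios of 0.729 and 0.980. These libraries also had the lowest summed SRPBM over all circRNA, 28922 and 30122. Their smallest listed values were the highest, at 0.719 and 0.707 SRPBM. The part of depth in the ratio was not tested.

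The leading junction's share of the Dpyd signal was 18.2%, 27.7%, 23.7%, 25.3%, 29.5% and 30.1% in PZH, against 27.1%, 13.1%, 17.6%, 21.2%, 20.8% and 21.8% in Control. PZH 1 lay among the Control libraries and Control 1 among the PZH libraries. The means were 25.7% ± 4.44 in PZH livers and 20.3% ± 4.67 in Control livers (SD, n = 6 each), a difference of 5.48 percentage points with an exact permutation p of 0.0671 (2-sided) and 0.403 after adjustment over the 6 tests. All circles starting at exon 9 together made up 45.6% ± 9.23 of the signal in PZH and 41.7% ± 4.96 in Control (exact permutation p = 0.374, 0.855 adjusted). Junctions of 5 or more exons made up 16.7% ± 5.21 in PZH and 14.5% ± 6.19 in Control (exact permutation p = 0.513, 0.855 adjusted). Single-exon circles were listed in 1 PZH library, at 4.22% of the signal, and in 2 Control libraries, at 1.88% and 4.91% (exact permutation p = 0.727, 0.855 adjusted).

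Within exons 9 to 13, the circle of exons 11 to 12 shares its end with that of exons 9 to 12 and starts 2 exons later. It was at a median of 2.37 SRPBM in PZH (1.24 to 4.00), against 3.96 SRPBM in Control (1.84 to 6.13). Control 6, the library with the lowest Dpyd sum, had the highest value of this circle, and the log2 fold change was -0.58 (SE 0.49, limma adjusted p = 0.805). Exons 11 to 13 were joined in a circle above 0 in 5 PZH libraries, at 1.77 to 3.72 SRPBM, and in 3 Control libraries, at 0.944 to 2.82 SRPBM. The junction of exons 13 to 14, which runs from the stretch of exons 9 to 13 into that of exons 14 to 20, was listed in 4 PZH libraries, at up to 3.15 SRPBM, and in 5 Control libraries, at up to 3.51 SRPBM.

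**Figure D5:**
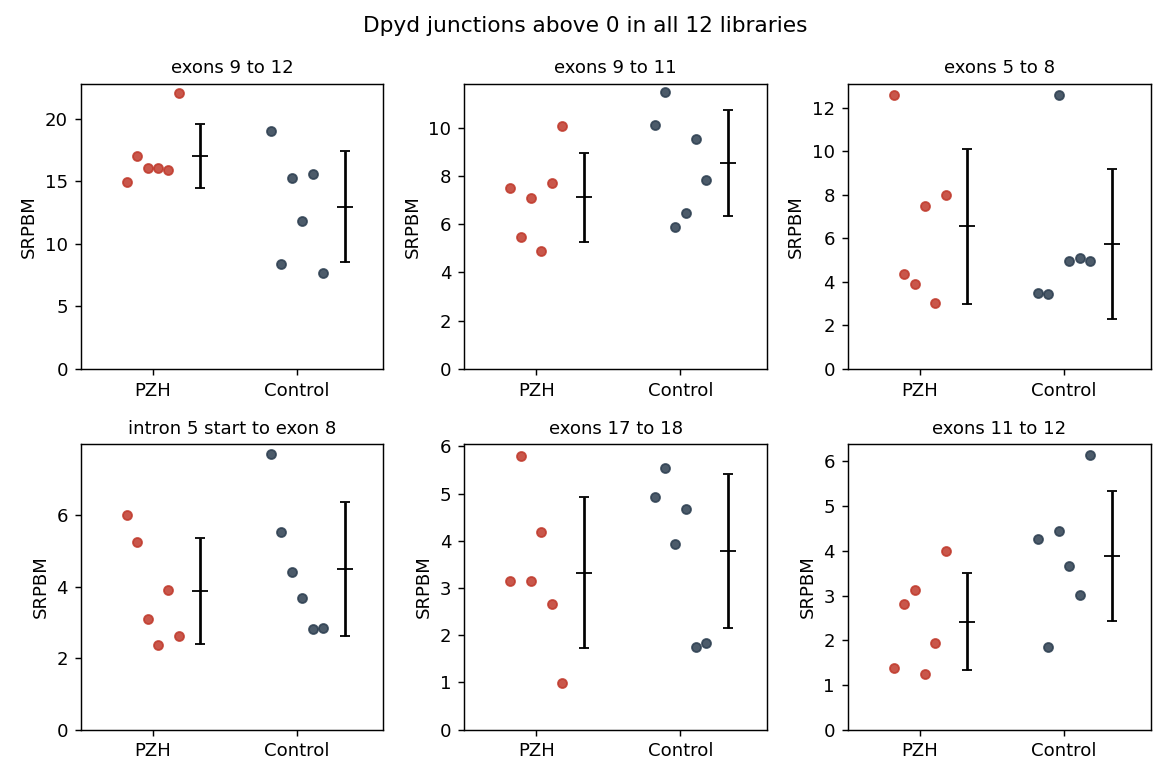
Dots are libraries (PZH red, Control dark blue) and bars the mean and SD (n = 6 each) in SRPBM for the 6 Dpyd junctions above 0 in every library. The groups overlap in each panel; the circle of exons 9 to 12 reaches from 14.9 to 22.1 SRPBM in PZH and from 7.68 to 19.0 SRPBM in Control.

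Circles within exons 2 to 8 ended mainly at exon 8. That of exons 5 to 8 had a median of 5.92 SRPBM in PZH (3.01 to 12.6), against 4.97 SRPBM in Control (3.43 to 12.6). One library of each group, PZH 1 and Control 3, stood at 12.6 SRPBM, well above the rest, and the log2 fold change was 0.16 (SE 0.41, limma adjusted p = 0.955). Another junction joined the exon 8 end to a start inside intron 5 that GENCODE M21 does not annotate as an exon start (chr3:118795058-118811267). It was above 0 in all 12 libraries, with a median of 3.51 SRPBM in PZH (2.38 to 6.02), against 4.05 SRPBM in Control (2.81 to 7.72), and a log2 fold change of -0.17 (SE 0.43, limma adjusted p = 0.949). The junction of exons 4 to 8 was above 0 in 4 libraries of each group, at 1.86 to 5.10 SRPBM in PZH and 1.07 to 3.18 SRPBM in Control, and its fold change did not pass (limma adjusted p = 0.964).

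The intron 5 start was the most used of 10 ends of Dpyd circles that lay inside introns. It carried 6.37% of the gene's signal, of the 11.9% that all 13 junctions with such an end made up. The 6 starts of this kind were in introns 5, 10, 12 and 14, with 3 of them in intron 12, and the 4 ends were in introns 3, 8 and 14. An end in intron 14 at position 119066881 was used by 2 of the 46 junctions and was above 0, with a further junction outside the 46, in 7 libraries. Joined to the start of exon 14 it gave a junction listed in 4 PZH libraries, at up to 3.87 SRPBM, and in 3 Control libraries, at up to 2.92 SRPBM. The starts at positions 118915205 and 118990106, in introns 10 and 12, were used by 2 junctions each. A start or end shared by separate junctions is a repeated observation of that position, and whether an exon lies there cannot be read from the table.

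Towards the 3′ part of the gene, 4 junctions ended at exon 18. That of exons 17 to 18 is the shortest in genome span of those seen in all libraries, at 947 bases around intron 17, which at 706 bases is the shortest of the gene. It had a median of 3.15 SRPBM in PZH (0.999 to 5.80), against 4.31 SRPBM in Control (1.76 to 5.55), with a log2 fold change of -0.18 (SE 0.49, limma adjusted p = 0.960). For exons 15 to 18 the PZH libraries stood at 6.85, 7.0, 2.44, 2.18, 3.42 and 1.34 SRPBM, against 0, 3.79, 2.91, 0, 3.25 and 0 SRPBM in the Control libraries. It was listed in every PZH library and in 3 Control libraries, and it had the smallest limma p of the 14 Dpyd junctions in the main fit. Its log2 fold change was 1.33 (SE 0.70, 95% interval -0.12 to 2.78), with an unadjusted p of 0.0709 (limma adjusted p = 0.686). With a pseudocount of 0.159 it was 2.21 and with one of 2.54 0.65.

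The junction of exons 14 to 18 had the longest span among the tested Dpyd junctions, 130310 bases, and a fold change of the opposite sign. PZH libraries stood at 0, 0, 3.29, 3.71, 0 and 1.33 SRPBM, against 2.45, 2.58, 5.79, 2.33, 1.90 and 0 SRPBM in the Control libraries. It was listed in 3 PZH and 5 Control libraries, and the log2 fold change was -0.86 (SE 0.72, limma adjusted p = 0.803). In 5 libraries of each group the junction of exons 14 to 16 was listed, at 1.93 to 4.28 SRPBM in PZH and 0.632 to 4.16 SRPBM in Control (limma adjusted p = 0.895).

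Of 33 genes of pyrimidine breakdown, salvage and synthesis, 12 had any circRNA and 4 were tested as host gene sums. In limma 0 of the 4 passed an adjusted p of 0.05, against 0% of all host gene sums, and 0 an unadjusted one, against 8.12%. Of the 4, 1 had a log2 fold change above 0, that of Dpyd itself (54.8% of all host gene sums did). The signs were the same under median-of-ratios scaling and scaling by summed SRPBM. Upp2, a uridine phosphorylase of liver, averaged 21.7 ± 5.95 SRPBM over 6 PZH livers, against 28.3 ± 5.34 SRPBM over 6 Control livers, and its log2 fold change was -0.39 (SE 0.22, limma adjusted p = 0.651). Dpys, whose product opens the ring that dihydropyrimidine dehydrogenase has reduced, averaged 6.66 ± 4.33 SRPBM over 6 PZH livers, against 7.10 ± 3.18 SRPBM over 6 Control livers (log2 fold change -0.20, SE 0.48, limma adjusted p = 0.920). Ctps2, which encodes a CTP synthase, had circRNA in 3 PZH libraries and in 4 Control libraries (log2 fold change -0.93, SE 0.71, limma adjusted p = 0.733). Upb1, which encodes the last enzyme of the breakdown pathway, was above 0 in 1 library of each group, and 21 genes of the list, among them Dhodh, Cad and Umps of pyrimidine synthesis, had no circRNA in the table.

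Across the 12 libraries, the host genes whose summed circRNA followed that of Dpyd most closely, among 943 above 0 in every library, were Afm (an albumin family plasma protein), Insr (the insulin receptor), Rnf13, Pan3 and Crcp. Pearson's r of log2(SRPBM + 0.636) was 0.82, 0.82, 0.81, 0.78 and 0.78, as a description with no p, and the genes share libraries and depth. Spearman's rho was 0.81, 0.67, 0.44, 0.58 and 0.61. Without Control 3 and Control 6, the libraries farthest from the median Dpyd sum, r was 0.74 for Afm and 0.17 to 0.44 for the other 4. These libraries hold the highest and the lowest Dpyd sum.

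CircRNA of marker genes is given as a rough description of the tissue. The hepatocyte markers Apoa1 and Ttr had none, so a marker without circRNA does not show that its cell type was absent. Of 13 hepatocyte markers, 11 had circRNA, summing to 232 to 327 SRPBM in PZH and 186 to 317 SRPBM in Control. Most of that sum was Abcc2, at 219 ± 24.1 SRPBM in PZH and 205 ± 30.8 SRPBM in Control (SD, n = 6 each). Of the 11, Cyp2e1, Pck1 and Hnf4a were above 0 in only 1 library each, a Control library, Cyp3a11 in 3 libraries and Apob in 5. In limma 0 of the 6 hepatocyte markers tested passed an adjusted p of 0.05, and 1 an unadjusted one, Cps1, at 0 to 10.03 SRPBM in PZH and 6.46 to 14.3 SRPBM in Control (log2 fold change -1.48, SE 0.58, adjusted p = 0.539). The sign was the other way for the rest: 5 of the 6 had log2 fold changes above 0, against 54.8% of all host gene sums. The median of the 6 was 0.43. Of 9 stellate cell and fibroblast markers 2 had any circRNA, Reln and Dlc1, and their sum was 8.93 to 20.1 SRPBM in PZH and 0 to 6.13 SRPBM in Control, while Col1a1, Col1a2, Col3a1, Acta2, Lrat, Des and Pdgfrb had none. In limma Reln had a log2 fold change of 2.67 (SE 0.63, unadjusted p = 3.65e-04, adjusted p = 0.201). Its groups did not overlap, at 4.12 to 11.7 SRPBM in PZH and 0 to 3.32 SRPBM in Control. The same held for 0.862% of all host gene sums tested. For Dlc1 the limma log2 fold change was 1.53 (SE 0.75, unadjusted p = 0.0535, adjusted p = 0.615). The part of these markers in the Dpyd values was not tested. Of 6 macrophage markers 4 had circRNA, but 3 of them, Ptprc, Marco and Csf1r, only in Control 3. Adgre1 alone was at 40.6 to 65.7 SRPBM in PZH and 34.0 to 52.4 SRPBM in Control. Its limma log2 fold change was 0.37 (SE 0.16, unadjusted p = 0.0314, adjusted p = 0.555). An unadjusted p of 0.05 was passed by 8.12% of all host gene sums. Endothelial markers (4 of 6) summed to 2.39 to 9.40 SRPBM in PZH and 1.99 to 11.2 SRPBM in Control, and 0 of 5 cholangiocyte markers had a circRNA. All circRNA together summed to 31472 to 41080 SRPBM in PZH and 28922 to 40927 SRPBM in Control.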

How the data were processed

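Per the submitters' processing notes, the authors used Trim Galore and STAR with the assembly GRCm38 (mm10); the caller, tool versions and way of computing SRPBM were not given in the sources used here. The deposited values are a signal, labelled SRPBM and so scaled for depth, with 1 column per mouse. Depth is known only through low values: the smallest value of a library was 0.584 to 0.719 SRPBM, and the leading Dpyd junction was 10.9 to 33.2 times that. With the smallest value set to 2 steps, 56.8% to 63.8% of values up to 8.5 steps lay near whole steps (0.05 below to 0.1 above). That window is a small part of a step, so values did gather near whole steps. The rest lay outside it, so whole reads were not recovered for all values.

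Hosts came from GENCODE M21; the host sets a junction's strand, and the principal transcript its exon numbers. For 135 circRNAs more than 1 host was possible, none of them of Dpyd. R 4.3.3 and limma 3.58.1 (variance trend on) were used for a fit on log2(SRPBM + 0.636), the pseudocount being the median smallest value, for circRNAs or host sums above 0 in at least 6 libraries, with 2-sided tests and Benjamini-Hochberg adjustment over all of them. Fold changes on this scale understate changes of low junctions. Exact permutation tests used all 924 assignments (Python 3.11.15, scipy 1.17.1). Mean ± SD is given for junctions and genes above 0 in every library, and for shares. The fit was also run on simulated data. These were normal log2 values without the zeros of the real data, with changes placed only in more abundant circRNAs. The run therefore does not show how the fit behaves for low junctions.

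Named junctions were the 6 above 0 in all libraries, the 3 tested ones with the smallest p in each direction, and those with the most exons or longest span; others named were chosen after their values were seen. The members and lists were chosen with earlier results of these data known. The fits were repeated with each library left out, with other pseudocounts, low-value filters and scalings, with a block for replicate number, by an exact rank-sum test and with other member rules.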

Additional observations from a re-analysis of the deposited data

Results flagged for a closer look

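Of 41 groups of 6 Dpyd values examined, 4 had 1 library far from the others for the range of the group. Chance sets apart about 1 in 20 where groups are independent and normally distributed. These groups are measures of the same 12 libraries, so the count is not set against that share. In PZH, Dpyd made up 0.261% of circRNA signal in PZH 1 and 0.155% to 0.184% in the other libraries. The circle of exons 9 to 12 stood at 22.1 SRPBM in PZH 6, against 14.9 to 17.0 in the other PZH libraries. Junctions of 5 or more exons made up 6.73% of Dpyd signal in PZH 2 and 16.01% to 20.9% in the others. A further group, the share of single-exon circles in PZH, had 5 libraries at 0, so that any value in PZH 2 would stand apart, and it was 4.22% there. In Control, the circle of exons 5 to 8 stood at 12.6 SRPBM in Control 3 and at 3.43 to 5.08 in the others.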

How the results depend on the processing

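No Dpyd junction and no Dpyd measure passed an adjusted p of 0.05 under any of the alternatives run, and 0 junctions were called in each. At an unadjusted p of 0.05 limma passed 1 Dpyd junction of 46 with no filter and 1 of 22 with a filter at 3 libraries. It passed 1 of 14 without PZH 6 or without Control 1, 2, 3 or 5. Of all circRNAs it passed 524 of 16445 with no filter and 504 of 6834 with the filter at 3 libraries. Without PZH 6 it passed 261 of 3548. Without Control 1, 2, 3 and 5 in turn it passed 286 of 3610, 285 of 3663, 288 of 3545 and 257 of 3547. The Dpyd counts are therefore not read as a result about the gene. The unadjusted limma p-values were, for exons 15 to 18, 0.0400 with no filter, and without PZH 6 (0.04997), Control 2 (0.0339), Control 3 (0.0455) and Control 5 (0.0413), and, for exons 9 to 12, 0.0382 without Control 1. The limma adjusted p of these was 0.586 to 0.679. With the filter at 3 libraries neither junction passed (unadjusted limma p of 0.0542 for exons 15 to 18 and 0.140 for exons 9 to 12). The 1 of 22 that passed there was another junction, whose p is not given here. The share of exons 9 to 12 came closest: its exact permutation p was 0.0173 (0.104 adjusted over the 6 tests) without PZH 1 and 0.0281 (0.169 adjusted) without Control 1. With only the junctions that have both ends on exon boundaries, the difference in junctions per library was 0.167 in place of -0.667. Leaving out each library in turn gave differences of -2.10 to 0.1 junctions per library, -0.0104 to 0.0123 percentage points for the share of circRNA signal, 4.05 to 7.0 for the share of exons 9 to 12, 1.78 to 6.51 for exon 9 starts, -1.13 to 0.328 for single-exon circles and -0.0811 to 4.19 for 5 or more exons. The log2 fold change of the Dpyd sum was -0.067 to 0.19, that of exons 5 to 8 -0.045 to 0.39, that of exons 4 to 8 -0.062 to 0.57, that of exons 17 to 18 -0.34 to 0.057, that of exons 9 to 13 0.27 to 1.06 and that of exons 15 to 18 1.07 to 1.63. Among pseudocounts, exons 15 to 18 ran from 0.65 to 2.21 and exons 14 to 18 from -1.46 to -0.39. Over all circRNAs limma called 2, against 30 with no filter, 6 with a filter at 3 libraries, 10 with one at all 12, 4 with 4 times the pseudocount and 1 with the replicate block. Host sums called were 0, against 6 with no filter, 3 without PZH 5, 2 with a filter at 3 libraries or the block, and 1 with a filter at all 12, 4 times the pseudocount, either scaling, or without PZH 3 or Control 6. The groups share replicate numbers, but same-numbered libraries did not deviate together (r of -0.119 to 0.0261), so the numbers were not taken as pairs. With the replicate block the log2 fold change of the Dpyd sum was 0.09 (limma adjusted p = 0.926), with 0 junctions called, and the share of exons 9 to 12 differed by 5.48 percentage points (exact sign-flip p = 0.188). The precision of low junctions is limited by values only a few times the smallest listed.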

Other observations

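A pair of junctions inside the gene had no end on an annotated exon boundary and is not among the 46. The first lay wholly in intron 8 (chr3:118865379-118867847), was above 0 in 2 PZH libraries and 1 Control library, and shared its end with a junction that starts at exon 6. The second ran from intron 13 to the intron 14 position 119066881 named above and was above 0 in 1 Control library.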
